A study of Mus musculus with 9 samples.

Results

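Integrins are the paired alpha and beta receptors that hold fibroblasts to the extracellular matrix, and focal adhesion adaptors are the cytoplasmic proteins that tie those receptors to actin. The 40 genes described here are every gene on the array with a symbol of the Itga or Itgb series (26 receptor genes, 18 alpha and 8 beta) and 14 of 15 adaptor genes chosen by name, out of 19938 genes tested. The remaining adaptor, Ptk2, was not analysed here. The members were chosen by name, with earlier results of these data known.

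The data are 9 Affymetrix Mouse Gene 1.0 ST arrays, with 3 in each group, of immortalized mouse embryonic fibroblasts (MEFs) of ICR background. The cells behind all 9 arrays were exposed for 2 h to 1e8 pfu per ml of an adenovirus that encodes a short hairpin RNA (shRNA), followed by 70 h in normal medium, and growth was at 37 degrees with 10% serum. The control group received a control shRNA (titled scr), the second group an shRNA against HSF1, the heat shock transcription factor, and the third group one against RPA1, the largest chain of RPA, which binds single-stranded DNA. Whether HSF1 and RPA1 act as a complex on gene expression was the study's question. Uninfected cells were not among the groups, and the adenovirus capsid itself uses Itgav-containing integrins during entry. The labels name 1 shRNA per target and are silent as to whether arrays of the same group are from different cultures, so p-values cover only the spread between these samples, which may be technical.

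Each receptor is 1 alpha and 1 beta chain, and the pairing sets the ligand. Itgb1 is the partner of most alpha chains in fibroblasts, Itgav pairs with several beta chains and binds matrix proteins that carry the Arg-Gly-Asp (RGD) motif, and the Itgb2 and Itgb7 chains are known mainly from leukocytes. Inside the cell talin binds the beta tail, vinculin and alpha-actinin join it to actin filaments, and paxillin, p130Cas and the complex of integrin-linked kinase with its LIM and parvin partners serve as scaffolds.

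Values are log2 signals, so a difference of 1 is a doubling or halving. Differences are given ± the standard error (SE) of limma with n = 3 arrays per group, and a gene is called when its Benjamini-Hochberg adjusted p over all 19938 genes is under 0.05 (two-sided). Signals of different probe sets are not a measure of relative abundance, so levels are compared only within a gene. The RNA is from whole cultures, where fewer cells of a type and less RNA per cell cannot be told apart.

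Rpa1 fell in the arrays labelled RPA1 shRNA (log2 difference -2.02 ± 0.04, limma adjusted p = 3.5e-08), whereas Hsf1 was not analysed here and the knockdown of HSF1 is therefore unchecked. Array medians were 7.72 to 7.81, and within a group arrays correlated at 0.994 to 0.998 on average. The lowest of these belonged to RPA1 shRNA array 3, which is given separately below. The 9 fibroblast marker genes had a mean log2 signal of 11.61 to 11.64 in the control arrays, 11.50 to 11.60 under HSF1 shRNA and 10.98 to 11.27 under RPA1 shRNA, where 6 of the 9 fell and 0 rose. Under HSF1 shRNA 4 fell and 1 rose.

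More adhesion genes were called under RPA1 shRNA than under HSF1 shRNA, as was so for all genes. Against the control, 22 of the 40 members (55%) were called under RPA1 shRNA, 14 higher and 8 lower, where 30.1% of all genes tested were called (15.4% higher and 14.7% lower). Under HSF1 shRNA 11 members (27.5%) were called, 8 higher and 3 lower, where 16.1% of all genes were called (9.89% higher and 6.21% lower). Of the 40 members, 26 lay above the median gene in mean signal over the 9 arrays. Among such genes 16 of these 26 members and 5135 of all 9969 genes were called under RPA1 shRNA. Under HSF1 shRNA these were 9 of 26 and 3179 of 9969. The part of signal level in the members' shares was not tested. The median size of a member's difference was 0.25 under RPA1 shRNA and 0.12 under HSF1 shRNA, beside 0.12 and 0.09 over all genes. Both comparisons use the same 3 control arrays. The HSF1 shRNA count fell in some fits that left out 1 array, and calls over all genes fell in the same fits. With control array 3 removed, 6 members and 1953 of all genes were called. Removing array 3 of HSF1 shRNA gave 6 and 2041, and removing its array 1 gave 7 and 2455. With all arrays 3210 of all genes were called. The split of the HSF1 shRNA count also moved with the scaling. It was 7 higher and 4 lower after quantile normalization and 6 and 4 after centring each array. The share of higher calls among all called genes went from 61.4% to 52% and 48.1%.

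**Figure D1:**
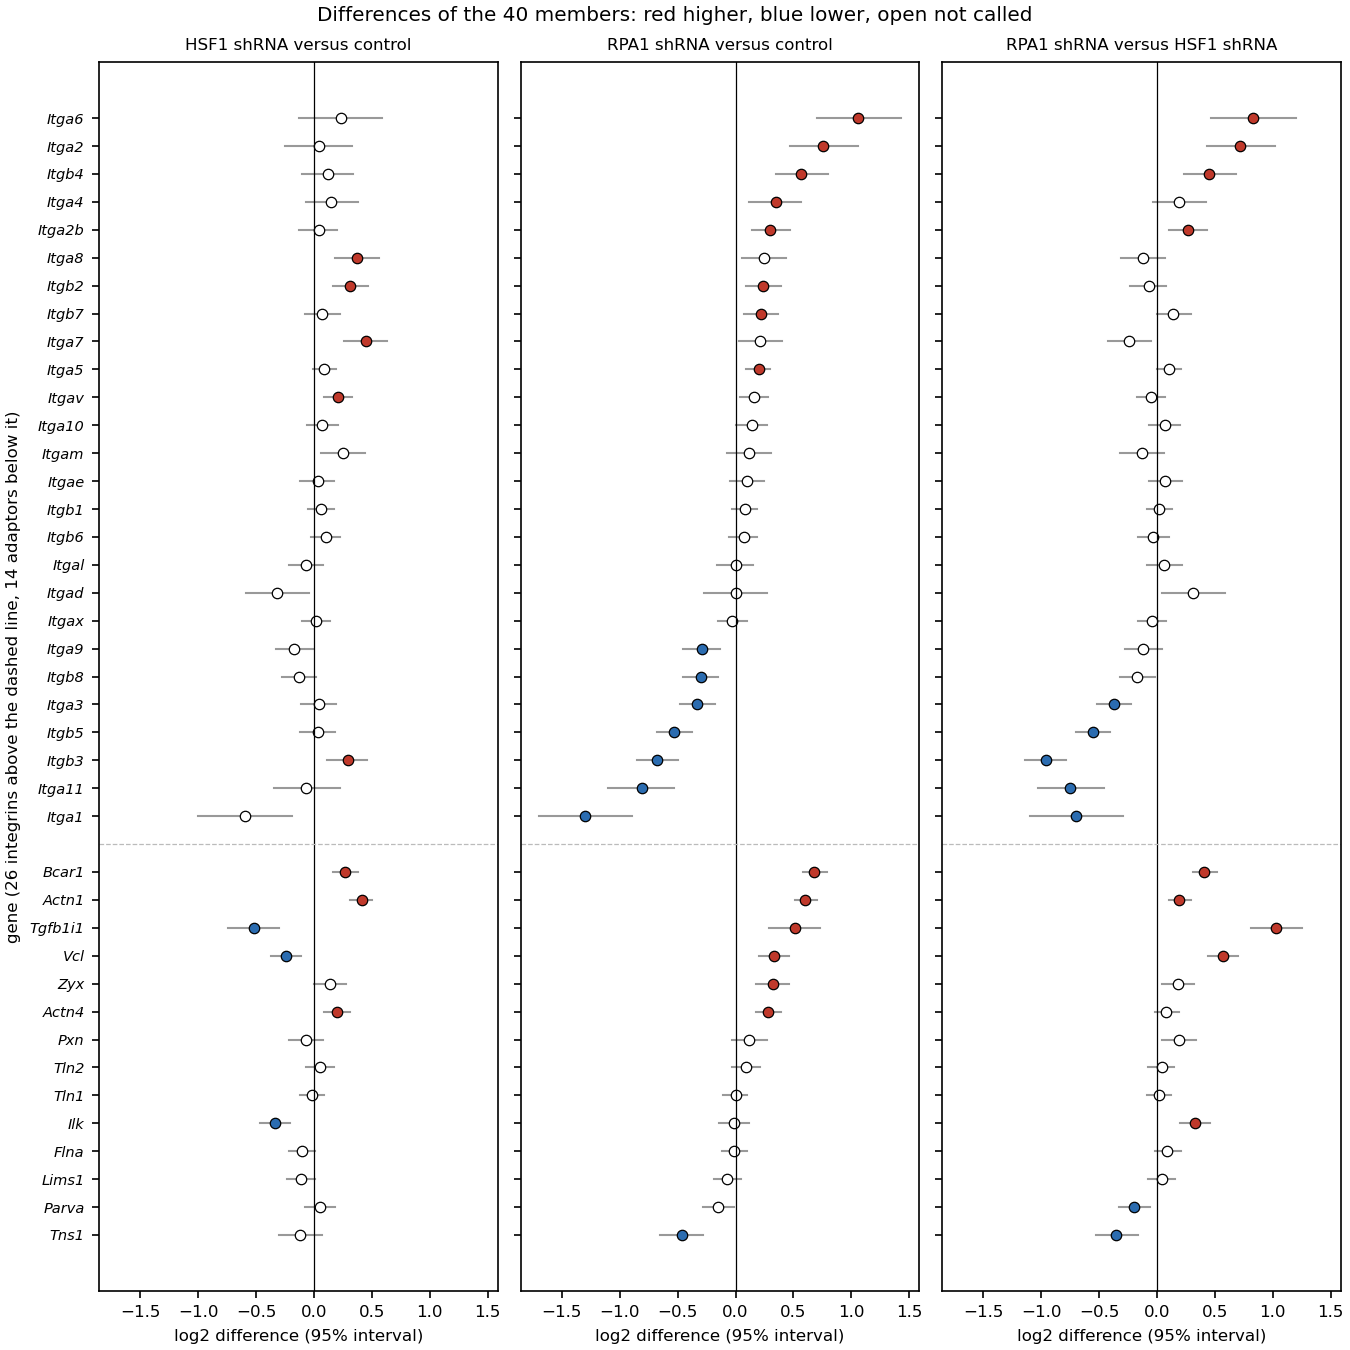
Log2 difference of each of the 40 members in 3 comparisons, with the 95% interval from limma as a bar. Filled red points are called higher, filled blue points called lower and open points not called; the 26 integrin genes are above the dashed line and the 14 adaptors below it. The widest span is among the integrins under RPA1 shRNA, from -1.30 for Itga1 to 1.06 for Itga6.

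Calls among the receptors ran both ways under RPA1 shRNA, and those among the adaptors ran mostly upward. Among the 26 receptors 8 rose and 7 fell under RPA1 shRNA (57.7% called, median difference 0.11), and 5 rose and 0 fell under HSF1 shRNA (19.2%, median 0.07); at an unadjusted p under 0.05 the receptors lower under HSF1 shRNA were 3. Among the 14 adaptors 6 rose and 1 fell under RPA1 shRNA (50%, median 0.10), and 3 rose and 3 fell under HSF1 shRNA (42.9%, median -0.04). The median over all genes was 0.02 under RPA1 shRNA and 0.04 under HSF1 shRNA. The receptor share under HSF1 shRNA was close to the 16.1% of all genes, and the difference between receptors and adaptors was not tested. In mean signal, all 14 adaptors but 12 of the 26 receptors lay above the median gene. Of all 9969 such genes, 5135 were called under RPA1 shRNA and 3179 under HSF1 shRNA. The part of signal level in the shares of receptors and adaptors was not tested.

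Collagen receptors held the largest fall under RPA1 shRNA. Itga1, Itga2, Itga10 and Itga11 encode the alpha chains that bind collagens as partners of Itgb1. Under RPA1 shRNA 2 of the 4 fell and 1 rose, and by limma 0 of the 4 were called under HSF1 shRNA, where 1 had an unadjusted p under 0.05.

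Itga1 read 8.35, 8.50 and 8.42 in the control arrays, 7.98, 7.88 and 7.62 under HSF1 shRNA and 6.88, 6.88 and 7.62 under RPA1 shRNA. Every RPA1 shRNA array lay below every control array, and RPA1 shRNA array 3 stood at the level of the lowest HSF1 shRNA array. The fall under RPA1 shRNA was 2.46-fold (log2 -1.30 ± 0.18, limma adjusted p = 0.00056). Under HSF1 shRNA all 3 arrays also lay below the control, at a log2 difference of -0.60 ± 0.18 that was not called (adjusted p = 0.051). That value sat at the threshold: 8 of the 16 alternative settings in which Itga1 was tested called it, among them the fits without 1 of the RPA1 shRNA arrays, with adjusted p = 0.049 without array 1, 0.045 without array 2 and 0.0014 without array 3.

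Itga11, whose product binds fibrillar collagen, read 8.43, 8.60 and 8.45 in the control arrays, 8.52, 8.49 and 8.27 under HSF1 shRNA and 7.49, 7.54 and 8.00 under RPA1 shRNA. The RPA1 shRNA arrays overlapped neither of the other groups, and the gene fell 1.76-fold (-0.81 ± 0.13, limma adjusted p = 0.0011). Under HSF1 shRNA the difference was -0.07 ± 0.13, with a 95% interval of -0.35 to 0.22.

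Itga2 moved the other way. It read 8.18, 8.50 and 8.30 in the control arrays, 8.45, 8.41 and 8.24 under HSF1 shRNA and 9.24, 9.25 and 8.78 under RPA1 shRNA. All 3 RPA1 shRNA arrays were above all 6 others, and the rise was 1.70-fold (0.76 ± 0.13, limma adjusted p = 0.0018). Itga10 was not called in either comparison (0.14 ± 0.06 and 0.07 ± 0.06 for RPA1 and HSF1 shRNA).

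Itga2 and Itga1 are neighbours on mouse chromosome 13, with 0 protein-coding genes between them, and they changed in opposite directions under RPA1 shRNA. Their promoter windows are printed because of that contrast. Each is the RefSeq sequence (GRCm38.p6) from 250 bases before to 50 bases after the annotated start, on the minus strand, at chr13:115101915-115102214 for Itga1 and chr13:114932051-114932350 for Itga2. Capitals mark a match to the heat shock element core GAANNTTC or TTCNNGAA.
Itga1: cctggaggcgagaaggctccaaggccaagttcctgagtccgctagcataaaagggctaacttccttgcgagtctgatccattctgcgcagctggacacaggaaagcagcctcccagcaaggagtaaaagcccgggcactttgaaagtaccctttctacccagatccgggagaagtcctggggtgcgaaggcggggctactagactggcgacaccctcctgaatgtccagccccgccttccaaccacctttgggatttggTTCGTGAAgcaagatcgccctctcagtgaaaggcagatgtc
Itga2: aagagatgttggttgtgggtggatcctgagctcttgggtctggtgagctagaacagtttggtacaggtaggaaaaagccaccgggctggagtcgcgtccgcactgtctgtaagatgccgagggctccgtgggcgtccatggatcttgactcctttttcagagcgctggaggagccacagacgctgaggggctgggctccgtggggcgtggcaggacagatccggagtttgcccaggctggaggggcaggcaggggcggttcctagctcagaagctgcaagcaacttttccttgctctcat
The Itga1 window held 1 such match, and the Itga2 window held none of the 4 motifs searched. The gene Pelo lies within the span of Itga1, and its own row differed from the control by 0.06 ± 0.05 under RPA1 shRNA (adjusted p = 0.50).

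**Figure D2:**
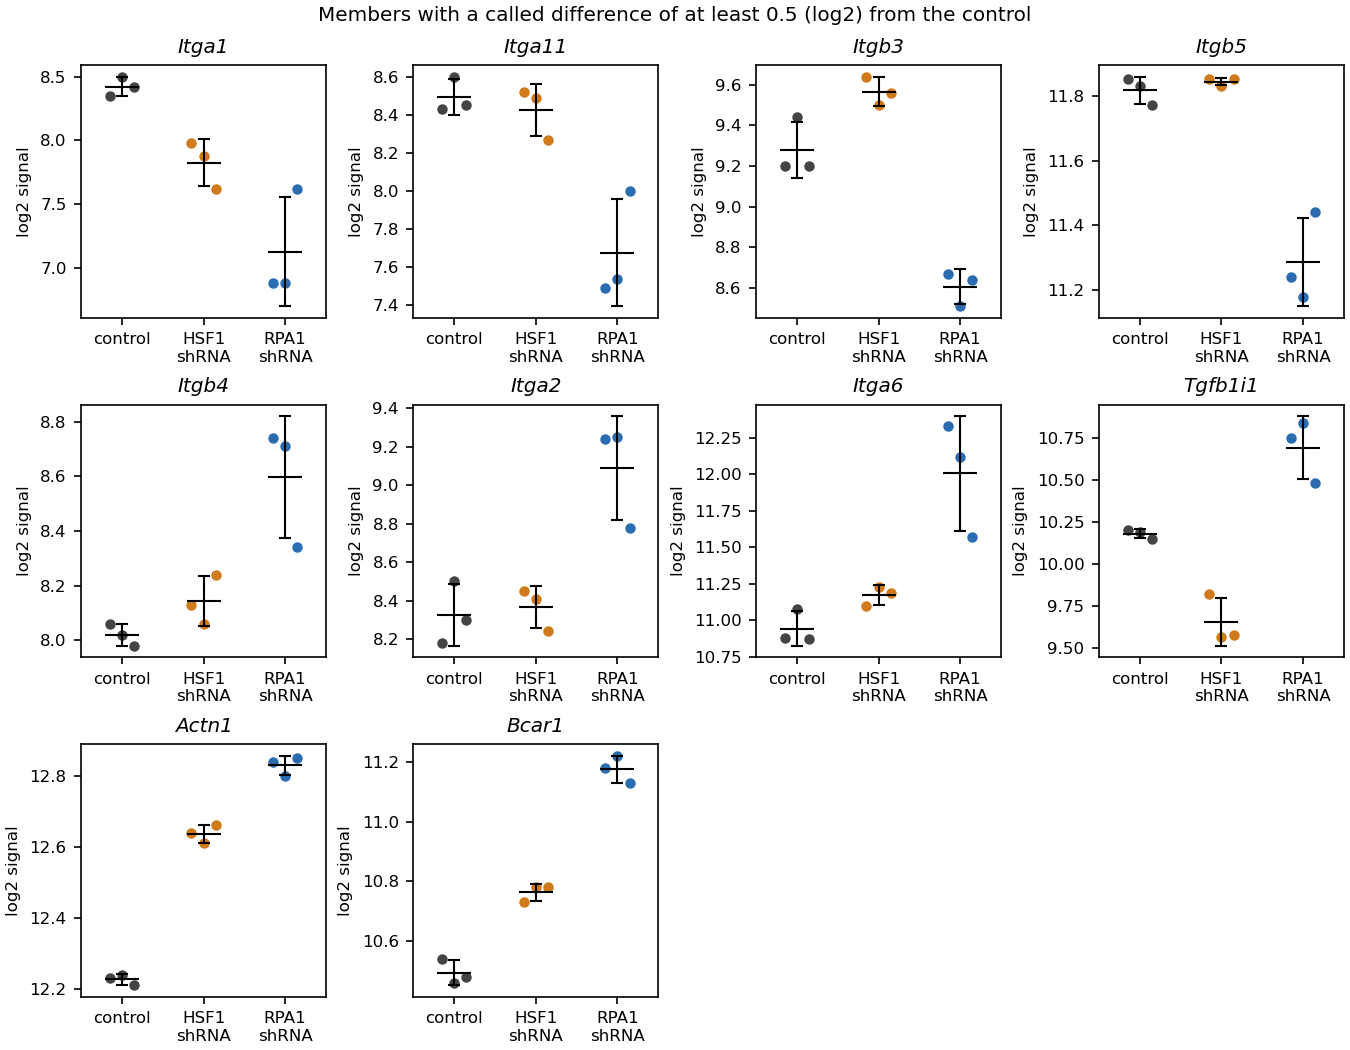
Log2 signal of every array for the 10 members called in HSF1 or RPA1 shRNA against the control with a log2 difference of at least 0.5. Each panel is a gene with its own vertical scale, which does not start at 0; points are arrays, in order of replicate number from left to right, and bars are the mean ± SD of 3 arrays. Itga1, Itga11, Itgb3 and Itgb5 are lowest under RPA1 shRNA, and Itgb4, Itga2, Itga6, Tgfb1i1, Actn1 and Bcar1 highest.

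The laminin receptor chains also split under RPA1 shRNA, with Itga6 and its partner Itgb4 higher and Itga3 lower. Itga6 read 10.88, 11.08 and 10.87 in the control arrays, 11.10, 11.23 and 11.19 under HSF1 shRNA and 12.33, 12.12 and 11.57 under RPA1 shRNA. The RPA1 shRNA arrays stood above all others, although array 3 rose least, and the gene rose 2.09-fold (1.06 ± 0.16, limma adjusted p = 0.00091). Itgb4, which pairs only with Itga6 and is known from the hemidesmosomes of epithelia, read 8.06, 8.02 and 7.98 in the control arrays, 8.13, 8.06 and 8.24 under HSF1 shRNA and 8.74, 8.71 and 8.34 under RPA1 shRNA. Its RPA1 shRNA arrays overlapped neither of the other groups (rise of 0.57 ± 0.10, limma adjusted p = 0.0019). The epithelial marker list showed no call under RPA1 shRNA: 0 of its 8 genes passed (0 at an unadjusted p under 0.05), and their mean log2 signal was 7.49 to 7.65, beside 7.52 to 7.60 in the control. Array signals have no true zero, so none of these markers can be read as absent.

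Itga3, a receptor chain for several laminins, fell under RPA1 shRNA by 0.33 ± 0.07 (limma adjusted p = 0.0043), with arrays between 10.55 and 10.77 beside 10.95 to 11.02 in the control. Under HSF1 shRNA neither Itga3 (0.04 ± 0.07) nor Itga6 (0.23 ± 0.16) was called. Itga7, the laminin receptor chain of muscle, was the integrin with the largest called rise under HSF1 shRNA (0.45 ± 0.08, limma adjusted p = 0.0061). Its HSF1 shRNA arrays spanned 8.98 to 9.16 and its control arrays 8.51 to 8.68, without overlap.

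Of the 4 RGD-binding alpha chains, Itga5 and Itga2b rose under RPA1 shRNA and Itgav and Itga8 under HSF1 shRNA. Itgav, the alpha chain of the vitronectin receptors, read 11.89, 11.94 and 11.94 in the control arrays, 12.13, 12.14 and 12.12 under HSF1 shRNA and 12.16, 12.10 and 11.98 under RPA1 shRNA. Both knockdown groups were above the control arrays without overlap. The rise under HSF1 shRNA was called (0.21 ± 0.05, limma adjusted p = 0.027), but not when any 1 of the 6 compared arrays was left out (adjusted p = 0.065 to 0.093) or after either rescaling of the arrays (0.065 and 0.073). Under RPA1 shRNA Itgav stood at 0.16 ± 0.05 (adjusted p = 0.051) and was called without RPA1 shRNA array 3 (0.21, adjusted p = 0.0058).

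Itga5, the alpha chain of the main fibronectin receptor, read 11.57, 11.57 and 11.63 in the control arrays, 11.70, 11.68 and 11.67 under HSF1 shRNA and 11.74, 11.79 and 11.83 under RPA1 shRNA. The RPA1 shRNA arrays were highest, and the rise over the control was 0.20 ± 0.05 (limma adjusted p = 0.0094), while HSF1 shRNA was not called (0.09 ± 0.05). Itga8, a receptor chain for nephronectin, rose under HSF1 shRNA by 0.37 ± 0.09 (limma adjusted p = 0.017). That call was lost without control array 1 or 3 or HSF1 shRNA array 1 or 3 (adjusted p = 0.051 to 0.071). Under RPA1 shRNA it stood at 0.25 ± 0.09 (adjusted p = 0.051), and it was called without control array 2 (adjusted p = 0.012) or RPA1 shRNA array 3 (0.023).

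Itga2b, the alpha chain of the platelet fibrinogen receptor, rose under RPA1 shRNA by 0.30 ± 0.07 (limma adjusted p = 0.011). Of 3 measured platelet markers 2 rose as well, Gp9 by 0.30 ± 0.08 and Ppbp by 0.39 ± 0.06. The other, Pf4, was not called (group mean 5.85 beside 5.92 in the control). The mean of the list was 6.87 to 7.04 beside 6.67 to 6.77 in the control. Itgb3, the partner of Itga2b in the platelet receptor, fell in the same comparison (-0.68 ± 0.08). The part of that list in the result was not tested.

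Itga4 and Itga9, receptor chains for VCAM1 and for matrix proteins such as fibronectin and tenascin, moved apart under RPA1 shRNA. Itga4 rose by 0.35 ± 0.10 (limma adjusted p = 0.025) and Itga9 fell by 0.29 ± 0.07 (adjusted p = 0.012). The Itga4 call was lost without control array 1 or 3 or RPA1 shRNA array 1 (adjusted p = 0.094 to 0.10), and the Itga9 call without control array 1 (0.051). Neither was called under HSF1 shRNA with all arrays, and Itga4 was without control array 2 (0.28, adjusted p = 0.042).

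The beta chains followed no common direction. Under RPA1 shRNA 3 of the 8 rose and 3 fell, and under HSF1 shRNA 2 rose and 0 fell. Itgb1, the partner of most of the alpha chains above, read 12.20, 12.30 and 12.32 in the control arrays, 12.33, 12.32 and 12.34 under HSF1 shRNA and 12.39, 12.35 and 12.32 under RPA1 shRNA. It was not called, and the 95% interval of its difference ran from -0.03 to 0.19 under RPA1 shRNA and from -0.05 to 0.17 under HSF1 shRNA.

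Itgb3, which forms the vitronectin receptor with Itgav and the fibrinogen receptor with Itga2b, was called in opposite directions by the 2 knockdowns. It read 9.20, 9.44 and 9.20 in the control arrays, 9.64, 9.50 and 9.56 under HSF1 shRNA and 8.67, 8.51 and 8.64 under RPA1 shRNA. No array of a group overlapped those of another group. Itgb3 fell 1.60-fold under RPA1 shRNA (-0.68 ± 0.08, limma adjusted p = 0.00019), with arrays 1 to 3 at -0.61, -0.77 and -0.65 from the control mean. It rose by 0.29 ± 0.08 under HSF1 shRNA (limma adjusted p = 0.033). The rise was not called without control array 1 or 3 or any 1 of the HSF1 shRNA arrays (0.24 to 0.32, adjusted p = 0.057 to 0.13), or with the replicate number as a block (adjusted p = 0.068).

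Itgb5, another partner of Itgav, read 11.85, 11.83 and 11.77 in the control arrays, 11.85, 11.83 and 11.85 under HSF1 shRNA and 11.24, 11.18 and 11.44 under RPA1 shRNA. Only the RPA1 shRNA arrays stood apart, 1.44-fold lower (-0.53 ± 0.07, limma adjusted p = 0.00034), and under HSF1 shRNA the difference was 0.03 ± 0.07. Itgb8, which with Itgav binds latent TGF-beta, fell under RPA1 shRNA by 0.30 ± 0.07 (limma adjusted p = 0.0066). Itgb6, an epithelial partner of Itgav, was not called in either comparison.

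The beta chains Itgb2 and Itgb7 were called, and the 5 alpha chains classed here as leukocyte integrins were not. Itga4, called higher under RPA1 shRNA as given above, was classed apart from them with Itga9. Of the 5 leukocyte alpha chains, Itgal, Itgam, Itgax, Itgad and Itgae, 0 were called in any of the 3 comparisons by limma at the adjusted threshold, where Itgam under HSF1 shRNA came nearest (0.25 ± 0.08, adjusted p = 0.075). At an unadjusted p under 0.05 there were 2 under HSF1 shRNA, 0 under RPA1 shRNA and 1 between the knockdowns. Itgam was called under HSF1 shRNA without control array 1 (0.33, adjusted p = 0.044). Itgb2, the partner of these chains other than Itgae, which pairs with Itgb7, rose under both knockdowns, by 0.31 ± 0.07 with HSF1 shRNA (limma adjusted p = 0.013) and 0.24 ± 0.07 with RPA1 shRNA (0.024). Without control array 2 both calls were lost (adjusted p = 0.053 and 0.093), and the RPA1 shRNA call also without RPA1 shRNA array 2 (0.076). Itgb7 rose under RPA1 shRNA by 0.22 ± 0.07 (limma adjusted p = 0.033), a call lost without any 1 of the control arrays or without RPA1 shRNA array 1 or 2 (adjusted p = 0.054 to 0.12) and after quantile normalization (0.072). Beside them, 3 of 8 macrophage and blood cell markers rose under RPA1 shRNA, namely Cd68, Lyz2 and Csf1r, and 2 of 8, Lyz2 and Csf1r, under HSF1 shRNA. The mean log2 signal of the 8 markers was 6.90 to 6.98 in the control arrays, 7.14 to 7.18 under HSF1 shRNA and 7.34 to 7.40 under RPA1 shRNA. Under RPA1 shRNA the largest difference among them was 2.06, of Cd68 (mean 10.28 beside 8.23 in the control), and the median difference was 0.15. The pan-leukocyte marker Ptprc was not called (0.12 ± 0.06 in both). The part of these markers in the result was not tested.

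Most of the changed adaptors rose under RPA1 shRNA, led by Bcar1 (p130Cas) and Actn1 (alpha-actinin). Actn1, which crosslinks actin at adhesions and stress fibres, read 12.23, 12.24 and 12.21 in the control arrays, 12.64, 12.61 and 12.66 under HSF1 shRNA and 12.84, 12.80 and 12.85 under RPA1 shRNA. The groups formed 3 steps without overlap. Actn1 rose 1.33-fold under HSF1 shRNA (0.41 ± 0.04, limma adjusted p = 0.00038) and 1.52-fold under RPA1 shRNA (0.60 ± 0.04, adjusted p = 1.5e-05).

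Bcar1, the gene of the stretch-sensitive scaffold p130Cas, showed the same order. It read 10.54, 10.46 and 10.48 in the control arrays, 10.73, 10.78 and 10.78 under HSF1 shRNA and 11.18, 11.22 and 11.13 under RPA1 shRNA. It rose 1.21-fold under HSF1 shRNA (0.27 ± 0.05, limma adjusted p = 0.0052) and 1.61-fold under RPA1 shRNA (0.68 ± 0.05, adjusted p = 1.5e-05). Actn1 and Bcar1 kept both calls under all 17 alternative settings.

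Actn4, the second non-muscle alpha-actinin, read 13.01, 13.06 and 13.01 in the control arrays, 13.22, 13.21 and 13.26 under HSF1 shRNA and 13.33, 13.36 and 13.25 under RPA1 shRNA. Both knockdown groups were above the control. It rose by 0.28 ± 0.05 under RPA1 shRNA (limma adjusted p = 0.0016) and by 0.20 ± 0.05 under HSF1 shRNA (0.019). The call under HSF1 shRNA was lost without control array 1 or 3 or HSF1 shRNA array 3 (adjusted p = 0.065 to 0.070) and after centring (0.055).

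Tgfb1i1 and Vcl were called in opposite directions by the knockdowns. Tgfb1i1 encodes Hic-5, the paxillin relative of adhesions in contractile cells. It read 10.20, 10.19 and 10.15 in the control arrays, 9.82, 9.57 and 9.58 under HSF1 shRNA and 10.75, 10.84 and 10.48 under RPA1 shRNA. The control arrays lay between the knockdown groups without overlap. Tgfb1i1 fell 1.44-fold under HSF1 shRNA (-0.52 ± 0.10, limma adjusted p = 0.0065) and rose 1.42-fold under RPA1 shRNA (0.51 ± 0.10, adjusted p = 0.0033).

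Vcl, the gene of vinculin, spanned 11.70 to 11.81 in the control arrays, 11.53 to 11.54 under HSF1 shRNA and 12.00 to 12.16 under RPA1 shRNA. Its 3 groups did not overlap either. It fell by 0.24 ± 0.06 under HSF1 shRNA (limma adjusted p = 0.020) and rose by 0.33 ± 0.06 under RPA1 shRNA (adjusted p = 0.0020). The fall was not called without control array 2 or 3 or any 1 of the HSF1 shRNA arrays (adjusted p = 0.052 to 0.080). The gene Ap3m1 overlaps Vcl in the annotation, and its own row rose under HSF1 shRNA (0.32 ± 0.05, limma adjusted p = 0.0028).

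The promoter window of Vcl, at chr14:20929148-20929447 on the plus strand (RefSeq, GRCm38.p6), is printed because it alone among the members' windows held 3 of the 4 motifs searched. Capitals mark, from left to right, a CArG box, the site of serum response factor, at 227 bases before the start, a heat shock element core at 200 bases before it and the TEAD motif GGAATG at 143 bases before it.
Vcl: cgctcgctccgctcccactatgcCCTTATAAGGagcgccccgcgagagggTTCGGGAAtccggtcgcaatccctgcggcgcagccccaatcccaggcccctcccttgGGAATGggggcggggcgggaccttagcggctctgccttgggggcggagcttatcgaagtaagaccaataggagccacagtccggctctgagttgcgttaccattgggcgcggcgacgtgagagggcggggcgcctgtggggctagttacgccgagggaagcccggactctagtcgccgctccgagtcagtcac
Such letters are a description of the sequence and no evidence of binding. Windows were found for 28 of the 40 members, 34 windows in all. A CArG box was in 5.88% of these and 1.41% of all 19177 windows, which for the members is 2 windows, of Vcl and Itgb6. The heat shock core was in 14.7% of the members' windows (Bcar1, Itga1, Itga5, Itgb5 and Vcl) and 13.2% of all, GGAATG in 14.7% (Actn4, Flna, Itga10, Itgb1 and Vcl) and 13.2%, and the AP-1 motif TGANTCA in 14.7% (Actn4, Itga3, Itga9, Itgax and Zyx) and 6.9%. Both strands were searched. Of the 5 genes with a heat shock core, Bcar1 was called higher and Vcl lower under HSF1 shRNA, and the other three were not called.

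Ilk, the gene of integrin-linked kinase, was called lower under HSF1 shRNA and not called under RPA1 shRNA. Its arrays spanned 11.77 to 11.80 in the control, 11.37 to 11.52 under HSF1 shRNA and 11.69 to 11.82 under RPA1 shRNA. The HSF1 shRNA arrays were lowest (-0.34 ± 0.06, limma adjusted p = 0.0041), and under RPA1 shRNA the difference was -0.01 ± 0.06, with a 95% interval of -0.14 to 0.12. Its complex partners Lims1 and Parva were not called against the control with all 9 arrays. Parva was called lower under RPA1 shRNA without RPA1 shRNA array 3 (-0.18, limma adjusted p = 0.048) and with array weights (-0.14, adjusted p = 0.038), and Lims1 under HSF1 shRNA reached adjusted p = 0.050 with array weights.

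Zyx, which encodes the stress fibre protein zyxin, rose under RPA1 shRNA by 0.32 ± 0.06 (limma adjusted p = 0.0038), with 12.48 to 12.71 beside 12.25 to 12.26 in the control. Tns1, the gene of the actin and beta tail linker tensin, was the 1 adaptor that fell there (-0.46 ± 0.08, adjusted p = 0.0022). Tns1 had 6 rows on the array, and their RPA1 shRNA differences ran from -0.46 to -0.07, all below the control.

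Talin, filamin and paxillin transcripts were not called against the control with all 9 arrays. Flna, whose product crosslinks actin and binds beta tails, read 12.92, 12.95 and 12.98 in the control arrays, 12.84, 12.86 and 12.86 under HSF1 shRNA and 12.98, 12.99 and 12.86 under RPA1 shRNA. The RPA1 shRNA arrays straddled the control, with a 95% interval of -0.12 to 0.10 for the difference. For Tln1, the main talin gene of fibroblasts, the intervals were -0.11 to 0.10 under RPA1 shRNA and -0.12 to 0.09 under HSF1 shRNA. Tln2 stood at 0.09 ± 0.05 and 0.05 ± 0.05, and Pxn at 0.12 ± 0.07 and -0.07 ± 0.07. Pxn was called under RPA1 shRNA without RPA1 shRNA array 3 (0.19, limma adjusted p = 0.020) and with array weights (0.17, adjusted p = 0.012).

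**Figure D3:**
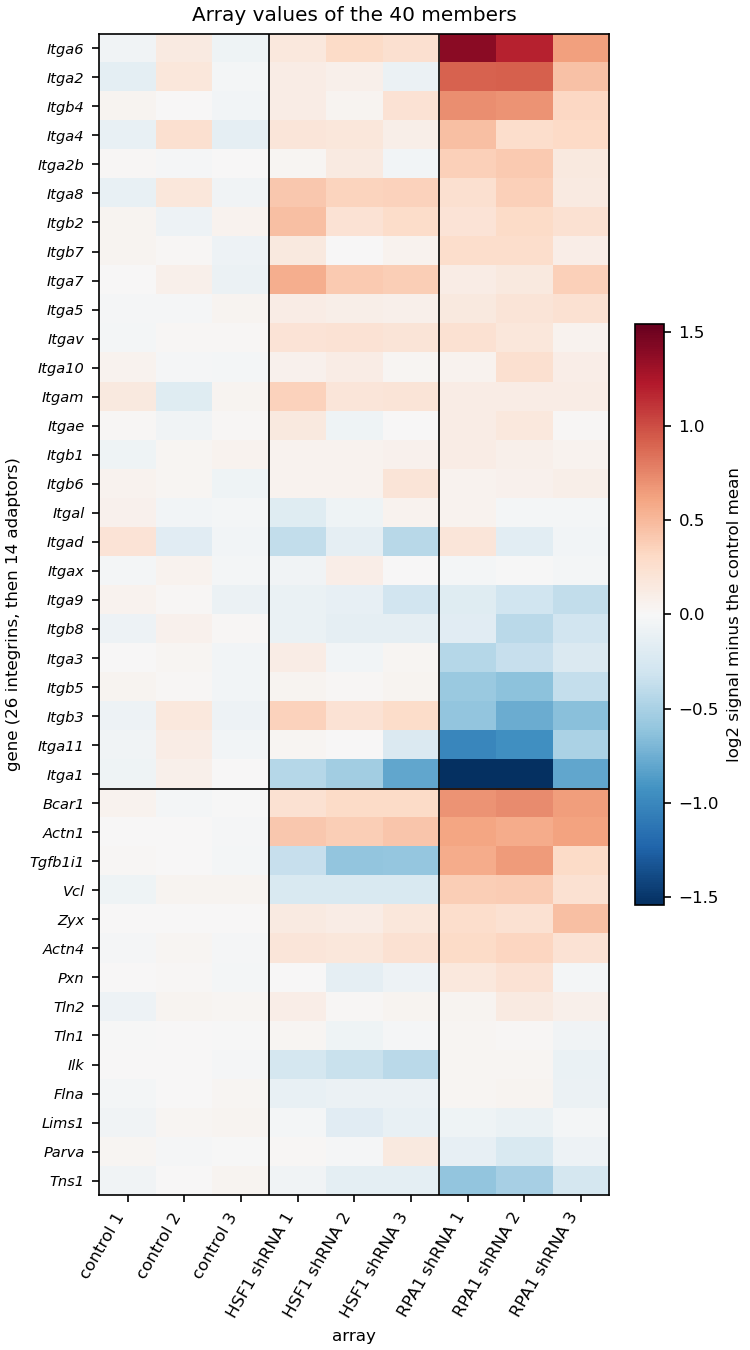
Log2 signal of each member in each of the 9 arrays minus the mean of the 3 control arrays of that gene, as a colour from blue (lower) to red (higher). Columns are arrays and rows are genes, with the 26 integrins above the line and the 14 adaptors below it. The RPA1 shRNA columns carry the strongest colours, paler in array 3 for Itga6, Itga2, Itga11 and Itga1.

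The third RPA1 shRNA array was less shifted than the other two in many members. Of the 22 members called under RPA1 shRNA, array 3 lay nearest to the control mean in 14, and its shift was a median 0.61 of the mean shift of arrays 1 and 2. The ratio was 0.523 for Itga1, 0.488 for Itga6, 0.495 for Itga2 and 0.486 for Tgfb1i1. It was near or above 1 for Actn1 (1.04), Itgb8 (1.02), Itga5 (1.38) and Zyx (1.87). Without array 3, 26 members were called, 17 higher and 9 lower. Over all genes that fit called 7245, beside 5998 with all arrays.

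**Figure D4:**
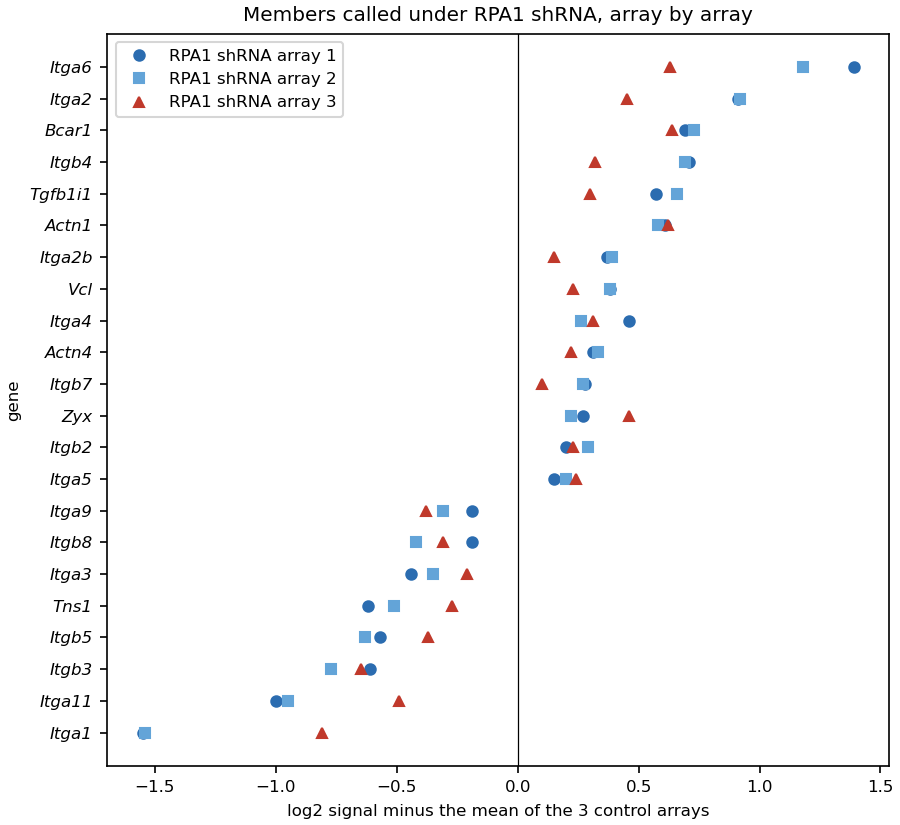
Log2 signal of each RPA1 shRNA array minus the mean of the 3 control arrays, for the 22 members called under RPA1 shRNA. Circles are array 1, squares array 2 and triangles array 3, and the vertical line at 0 is the control mean. The triangle is nearest to the line in 14 of the 22 genes, and no array crosses it.

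The direct comparison of RPA1 with HSF1 shRNA tests the difference between the knockdowns. It called 16 members (40%), 9 higher and 7 lower with RPA1 shRNA, where 24.4% of all genes were called (9.71% higher and 14.7% lower). Among genes above the median gene in mean signal, 16 of 26 members and 4462 of all 9969 genes were called. After quantile normalization the split was 11 higher and 6 lower, and after centring 12 and 6, while the share of higher calls over all genes went from 39.8% to 48.6% and 52.4%. Of the 26 receptors 4 were higher and 5 lower (median -0.04), and of the 14 adaptors 5 were higher and 2 lower (median 0.14), beside a median of -0.02 over all genes.

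Tgfb1i1 was 2.04-fold higher with RPA1 than with HSF1 shRNA (1.03 ± 0.10, limma adjusted p = 0.00018), and Itgb3 1.95-fold lower (-0.96 ± 0.08, adjusted p = 9.3e-05). Vcl (0.57 ± 0.06, limma adjusted p = 0.00026), Bcar1 (0.41 ± 0.05), Ilk (0.33 ± 0.06) and Actn1 (0.19 ± 0.04) were also higher. Among the receptors Itga6 (0.83 ± 0.16), Itga2 (0.72 ± 0.13), Itgb4 (0.45 ± 0.10) and Itga2b (0.27 ± 0.07) were higher with RPA1 shRNA. Itga11 (-0.75 ± 0.13), Itga1 (-0.70 ± 0.18), Itgb5 (-0.55 ± 0.07) and Itga3 (-0.37 ± 0.07) were lower, as were the adaptors Tns1 (-0.35 ± 0.08) and Parva (-0.20 ± 0.06).

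Calls of that comparison that rested on single arrays were those of Itga1, lost without HSF1 or RPA1 shRNA array 1 or 2 (adjusted p = 0.065 to 0.079), and Itga2b, lost without array 1 or 3 of HSF1 shRNA or array 1 or 2 of RPA1 shRNA (0.076 to 0.094). The call of Tns1 was lost without HSF1 shRNA array 1 (0.054). The call of Parva was lost without any 1 array other than HSF1 shRNA array 2 or RPA1 shRNA array 3 (0.059 to 0.13) and after either rescaling (0.067 and 0.15). Itgb2 (-0.07 ± 0.07), Itga8 (-0.12 ± 0.09), Itgav (-0.05 ± 0.05) and Actn4 (0.08 ± 0.05) were not called between the knockdowns. Neither was Itga7 (-0.24 ± 0.08, adjusted p = 0.066), which was called without RPA1 shRNA array 3 (-0.32, adjusted p = 0.0081). Against the control under RPA1 shRNA Itga7 stood at 0.21 ± 0.08 (adjusted p = 0.083) and was called after quantile normalization (0.24, adjusted p = 0.027) and centring (0.22, 0.047).

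Most integrin ligands measured were called under RPA1 shRNA. Of 40 measured ligand genes, from a list of 43 matrix proteins and cell surface ligands, 14 rose and 16 fell (75% called, beside 30.1% of all genes). Under HSF1 shRNA 6 rose and 8 fell (35%, beside 16.1%). Among genes above the median gene in mean signal, 28 of 31 ligands were called under RPA1 shRNA, beside 5135 of all 9969. For HSF1 shRNA these were 14 of 31 and 3179 of 9969. Under RPA1 shRNA Col6a1, a chain of type VI collagen, fell by 1.49 ± 0.14 (limma adjusted p = 5.6e-05), Tgfb3, whose latent form some integrins activate, by 1.22 ± 0.09, the tenascin gene Tnc by 1.13 ± 0.07 and the type I collagen gene Col1a2 by 1.05 ± 0.12. The matricellular genes Ccn2 (1.06 ± 0.11, limma adjusted p = 1e-04) and Ccn1 (0.62 ± 0.08) rose, with the laminin chain gene Lama2 (0.86 ± 0.15) and Icam1 (0.67 ± 0.11), the ligand of leukocyte integrins. Col1a2, Col1a1, Col3a1 and Fn1 are also members of the fibroblast marker list given above, so the lists share genes. Group means under RPA1 shRNA were 12.47 for Col1a1 (control 13.03), 9.53 for Col3a1 (10.11) and 13.80 for Fn1 (14.15).

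Under HSF1 shRNA the largest called falls among the ligands were those of Tnc (-1.04 ± 0.07, limma adjusted p = 6.3e-05), Col1a2 (-0.51 ± 0.12), the basement membrane gene Nid2 (-0.47 ± 0.09) and Tgfb3 (-0.45 ± 0.09). Ccn2 (0.57 ± 0.11, limma adjusted p = 0.0075), the type IV collagen gene Col4a1 (0.38 ± 0.05), Thbs1 (0.35 ± 0.06) and Mfge8 (0.28 ± 0.05) rose. The Col1a2 call was lost without any 1 of the control arrays or without HSF1 shRNA array 2 or 3 (adjusted p = 0.064 to 0.072). Leaving out control array 1 gave 9 called ligands, control array 3 gave 8 and HSF1 shRNA array 3 gave 9. Over all genes those fits called 2023, 1953 and 2041, beside 3210 with all arrays. Between the knockdowns 8 ligands were higher and 11 lower with RPA1 shRNA (47.5%, beside 24.4% of all genes), led by Lama2 (0.80 ± 0.15) and Col6a1 (-1.16 ± 0.14). That count was 12 without array 1 or array 3 of HSF1 shRNA or array 1 of RPA1 shRNA. Calls over all genes in those fits were 3471, 3792 and 3228, beside 4863 with all arrays.

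A list of 74 further adhesion genes, 68 of them measured, held kindlins, LIM proteins, actin linkers, signalling genes and integrin partners in the membrane. Under RPA1 shRNA 17 rose and 14 fell (45.6%, beside 30.1% of all genes), and under HSF1 shRNA 9 rose and 9 fell (26.5%, beside 16.1%). Among genes above the median gene in mean signal, 31 of 57 on the list were called under RPA1 shRNA, beside 5135 of all 9969. Under HSF1 shRNA these were 22 of 57 and 3179 of 9969. Tgm2, whose transglutaminase bridges integrins and fibronectin at the cell surface, fell under both, by 2.00 ± 0.10 with RPA1 shRNA (limma adjusted p = 2.7e-06) and 1.39 ± 0.10 with HSF1 shRNA (adjusted p = 6.8e-05). Plaur, the urokinase receptor gene, rose under both (1.19 ± 0.16 and 1.14 ± 0.16), and so did Sorbs2, an adaptor of actin and vinculin (1.22 ± 0.14 and 0.93 ± 0.14).

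The rises under RPA1 shRNA further held the LIM genes Fhl1 (0.83 ± 0.17, limma adjusted p = 0.0050) and Lims2 (0.70 ± 0.13), and the falls Cd47, an integrin-associated membrane protein (-0.77 ± 0.09), Lpp, a zyxin relative (-0.60 ± 0.17), and Elmo1 (-0.58 ± 0.08). The Lpp call was lost without control array 2 or 3 or RPA1 shRNA array 1 or 2 (adjusted p = 0.078 to 0.090). Under HSF1 shRNA the tensin gene Tns3 (-0.66 ± 0.05, limma adjusted p = 6.8e-05), the tetraspanin gene Cd151 (-0.49 ± 0.06) and Svil (-0.41 ± 0.05) fell, and Arhgap26 (0.39 ± 0.08) and Fhl2 (0.35 ± 0.10) rose. Fhl2 was called there at adjusted p = 0.046. It lost the call without any 1 of the 6 compared arrays (0.079 to 0.15) or without RPA1 shRNA array 2 (0.051). These genes were not all particular to HSF1 shRNA. Group means under RPA1 shRNA were 10.17 for Tns3 (control 10.64), 9.38 for Svil (9.9) and 8.69 for Arhgap26 (8.02). Cd151 stood at 12.15, beside 12.14 in the control. Fhl2 was called higher under RPA1 shRNA as well (0.33, limma adjusted p = 0.034), a call lost in 5 of the 17 alternatives.

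Between the knockdowns 17 of the 68 were higher and 7 lower with RPA1 shRNA (35.3%, beside 24.4% of all genes). Among genes above the median gene in mean signal, 25 of 57 on the list were called, beside 4462 of all 9969. Fhl1 differed most among those higher (1.28 ± 0.17, limma adjusted p = 0.00091), followed by Ptk2b (0.59 ± 0.11), the gene of the kinase Pyk2, then Lims2 (0.57 ± 0.13) and Cd151 (0.50 ± 0.06). Lower were Kank1 (-0.69 ± 0.08, limma adjusted p = 0.00055), Tgm2 (-0.61 ± 0.10), Cd47 (-0.60 ± 0.09) and Tns2 (-0.50 ± 0.07). Among the 3 kindlin genes, whose products bind beta tails beside talin, Fermt2 fell under HSF1 shRNA by 0.17 ± 0.05 and Fermt1 rose under RPA1 shRNA by 0.40 ± 0.13. Fermt1 read 6.56 and 6.61 in RPA1 shRNA arrays 1 and 2. Array 3 showed no rise, at 6.05 beside 6.05, 5.96 and 6.01 in the control arrays. How these kindlin calls fare without 1 array is not given here.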

How the data were processed

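Gene expression was measured on 9 arrays, 3 per group, and groups were taken from the labels. The deposited values are log2 signals per probe set, made by the authors with RMA in Partek 6.5, per the submitters' processing notes. The scale is not stated there, and log2 was inferred from the range of the values. RMA summarises probes into 1 value and compresses low signals, so small changes of dim genes can be missed. No background level was set here and no filter on dim genes was used.

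Of 35557 rows, 21789 had 1 gene symbol in the platform annotation, 1621 carried several and 12147 had no entry; rows with 1 symbol were used. The row with the highest mean over 9 arrays stood for each of the 999 genes with more than 1 row, which left 19938 genes. Members were found by symbol.

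R 4.3.3 and limma 3.58.1 fitted 1 mean per group to all 9 arrays (6 residual and 3.51 prior degrees of freedom), with 3 contrasts, eBayes and Benjamini-Hochberg adjustment over 19938 genes each, threshold 0.05, two-sided. Exact permutation of 3 against 3 arrays has 0.1 as its smallest p, so calls depend on the variance model of limma. The number of arrays limits the precision. The procedure was tested on simulated data. Per-array values were given for members called against the control with a log2 difference of at least 0.5 and for the 3 integrins and 3 adaptors with the highest mean. For ligands and further adhesion genes the 4 largest called rises and falls were named, and outside that rule the kindlin genes called against the control. For other members ranges or tests are given. In all 17 alternatives were run. The members, lists and motifs were chosen with earlier results of these data known. Promoter windows of 300 bases are from RefSeq GRCm38.p6, matched by symbol.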

Additional observations from a re-analysis of the deposited data

How the results depend on the processing

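Of the members' calls, 18 of 22 under RPA1 shRNA, 12 of 16 between the knockdowns and 5 of 11 under HSF1 shRNA (Itga7, Actn1, Bcar1, Ilk and Tgfb1i1) held under every alternative in which the gene was tested, which was all 17 except for Itga1, Itga11 and Itgb4, left out by the filter on dim genes and tested in 16. No called difference changed sign. Leaving out 1 array gave 6 to 13 called members under HSF1 shRNA, 19 to 26 under RPA1 shRNA and 12 to 20 between them, 13 to 27, 21 to 35 and 18 to 31 further adhesion genes, and 8 to 20, 26 to 31 and 12 to 28 ligands. Calls over all 19938 genes moved as well in these fits. They were 1953 to 4696 under HSF1 shRNA, 4642 to 7245 under RPA1 shRNA and 3228 to 6539 between the knockdowns. The alternatives for ligands and for named genes that are not members were added after the data were seen. Array weights raised the further adhesion genes called to 29 under HSF1 shRNA and 37 between the knockdowns, and the ligands to 23 and 29. Over all genes they raised the calls from 3210 to 5313 and from 4863 to 7926. The receptor median under HSF1 shRNA was 0.02 after quantile normalization and 0.03 after centring, and under RPA1 shRNA 0.07 after quantile normalization. Between the knockdowns it was -0.01 (quantile), 0.01 (centred), -0.02 for genes above the median level and -0.02 with array weights, so its sign turned with centring, and -0.04 to -0.02 without 1 array, and the adaptor median was 0.18 after centring; the causes were not tested. The replicate numbers did not pair the arrays (correlation of same-numbered deviations -0.159 to 0.0933 over 9 pairs), although in control and RPA1 shRNA 6 of 6 arrays correlated best with their own number. With the number as a replicate block 9 members were called under HSF1 shRNA (without Itgav and Itgb3), 23 under RPA1 shRNA (with Itga8) and 16 between them. The 3 arrays per group and the unknown background of dim probe sets limit what small differences can show.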
